A study of Homo sapiens with 6 samples.

Results

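Homologous recombination and Fanconi genes encode the proteins that repair double-strand breaks from an intact sister chromatid and release DNA crosslinks. The set held 33 genes, chosen by name for these roles and for the checkpoint kinases that act with them, and each matched a single row among the 58735 genes of the deposited counts. RNA came from Ovcar8, a widely used human ovarian carcinoma line of serous origin, kept for 48 h without serum (3 libraries) or with 5% fetal bovine serum, FBS (3 libraries). The serum-starved cells carried no other treatment, and the FBS cells served as the untreated controls. The series title ties serum withdrawal to quiescence, and no label says that replicates are independent cultures, so p-values reflect only how far these libraries vary.

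After a double-strand break, MRE11, RAD50 and NBN sense the ends and resection exposes single strands. BRCA1, PALB2 and BRCA2 then prepare these strands for pairing with the sister chromatid, and RAD51B, RAD51C, RAD51D, XRCC2, XRCC3, RAD51AP1, RAD54L and BLM act on the pairing strands and joint molecules. In the Fanconi pathway a core complex, with the E2 enzyme UBE2T, attaches ubiquitin to FANCD2 and FANCI at stalled forks, and ATM, ATR, CHEK1 and CHEK2 relay damage to the cell cycle machinery. Many of these genes are transcribed mainly in S and G2 phase, and loss of BRCA1 or BRCA2 is common in high-grade serous carcinoma.

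The promoters of the 4 genes that the comparisons below turn on most are shown first. RAD51AP1, FANCB and CHEK2 had lower levels in each serum-starved library than in any FBS library, and FANCD2 had the highest fitted value of the set. Each sequence runs 5′ to 3′ from 250 bases before to 50 bases after the RefSeq start (GRCh38.p14), and capitals mark CCAAT or its complement, the letters that the NF-Y factor binds. They lie at chr12:4538640-4538939 (RAD51AP1, plus strand), chrX:14873020-14873319 (FANCB, minus strand), chr22:28741771-28742070 (CHEK2, minus strand) and chr3:10026187-10026486 (FANCD2, plus strand).
RAD51AP1: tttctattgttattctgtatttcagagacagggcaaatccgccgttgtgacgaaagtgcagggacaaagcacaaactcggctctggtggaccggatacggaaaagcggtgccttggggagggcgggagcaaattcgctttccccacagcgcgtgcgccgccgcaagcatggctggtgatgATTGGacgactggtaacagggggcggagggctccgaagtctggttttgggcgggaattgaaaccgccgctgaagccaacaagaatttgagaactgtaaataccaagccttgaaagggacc
FANCB: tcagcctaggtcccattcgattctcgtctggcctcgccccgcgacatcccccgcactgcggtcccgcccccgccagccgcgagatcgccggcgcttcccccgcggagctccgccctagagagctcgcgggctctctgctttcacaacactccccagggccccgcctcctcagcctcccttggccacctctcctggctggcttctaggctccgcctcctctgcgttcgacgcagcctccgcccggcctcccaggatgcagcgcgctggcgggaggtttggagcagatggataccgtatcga
CHEK2: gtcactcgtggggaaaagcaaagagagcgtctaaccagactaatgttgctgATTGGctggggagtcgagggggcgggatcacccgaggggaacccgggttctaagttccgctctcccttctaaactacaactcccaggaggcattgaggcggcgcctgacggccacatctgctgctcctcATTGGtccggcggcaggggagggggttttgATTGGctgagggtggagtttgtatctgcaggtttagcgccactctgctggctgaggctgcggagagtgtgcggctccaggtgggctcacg
FANCD2: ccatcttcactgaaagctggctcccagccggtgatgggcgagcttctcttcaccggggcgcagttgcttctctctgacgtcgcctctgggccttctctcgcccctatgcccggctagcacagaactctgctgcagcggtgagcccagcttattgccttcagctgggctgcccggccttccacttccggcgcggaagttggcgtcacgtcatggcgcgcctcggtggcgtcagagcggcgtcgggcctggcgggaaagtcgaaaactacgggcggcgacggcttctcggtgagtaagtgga
CHEK2 held 3 CCAAT matches and RAD51AP1 held 1, whereas FANCB and FANCD2 held none in this window. Of the 33 genes, 31 had a promoter in the RefSeq table, and CCAAT on either strand occurred in 14 of these 31 (45.2%), against 42.8% of 10005 tested genes. The E2F letters TTTCGCGC or TTTGGCGC occurred in 2 of the 31 (EXO1 and FANCC, 6.45%), against 2.44%. The CHR letters TTTGAA or TTCGAA occurred in 4 (ATM, BRIP1, FANCC and UBE2T, 12.9%), against 14.9%. Over all 35116 promoters in the table the shares were 34.6% for CCAAT, 1.15% for E2F and 16.4% for CHR. A match describes letters and not a bound site. The 4 printed promoters held none of the E2F or CHR letters named above. Other forms of the E2F site were not searched, so the E2F shares cover TTTCGCGC and TTTGGCGC only. A promoter without these letters, including the 4 printed, may hold another form.

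The libraries held 17288356 to 19558484 counts in serum-starved cells and 16379416 to 17882533 counts with FBS. Levels are given as CPM, the count of a gene relative to the library's total after TMM scaling between libraries, and a count of 3 in a library corresponded to 0.132 to 0.204 CPM. Of the epithelial markers, KRT7, KRT8 and KRT18 were abundant, with KRT8 at 4640 to 7012 CPM without serum and 4433 to 7248 CPM with FBS. EPCAM averaged 2.50 CPM without serum and 2.70 CPM with FBS, CDH1 0.473 CPM without serum and 0.621 CPM with FBS, and KRT19 was near 0. PAX8, a marker of tubal and ovarian epithelium, was at 68.2 to 86.1 CPM without serum and 59.4 to 72.7 CPM with FBS, while WT1 averaged 1.91 CPM without serum and 1.88 CPM with FBS and MUC16 was at 0. MSLN, also listed as an ovarian carcinoma marker, was at 78.4 to 364 CPM without serum and 174 to 272 CPM with FBS. The 4 leukocyte markers summed to 0.132 to 1.16 CPM without serum and 0.152 to 1.17 CPM with FBS. The 3 endothelial markers summed to 1.54 to 4.55 CPM without serum, mostly VWF, and 0.26 to 0.774 CPM with FBS. Of 4 fibroblast markers DCN was at 0 in every library and LUM and PDGFRA were near 0. COL1A1 was at 762 to 831 CPM without serum and 318 to 577 CPM with FBS. The part of these markers in the results was not tested.

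Per kilobase of annotated exons, the set ranged widely in level. The length counts every annotated exonic base of a gene and can exceed that of the transcript in use, so levels between genes are approximate. The deposited FPKM (fragments per kilobase) is divided by a constant per library, which was not proportional to the library's total count. On this scale PARP1, the polymerase that marks DNA breaks with poly(ADP-ribose), was highest with a median of 33.5 over the 6 libraries. FANCG, UBE2T and FANCE followed at medians of 21.6, 21.2 and 17.96 FPKM, then RAD54L at 11.6 and FANCA at 9.06. Only these 6 genes exceeded a median of 5 FPKM, and 12 genes lay under 1 FPKM. BRCA1 (median 0.105), BRCA2 (0.0928), ATM (0.138) and FANCM (0.142) were among the lowest. In this order, 30 of the 32 neighbouring pairs had overlapping ranges over the libraries, so the order among neighbours is not resolved. The exceptions were FANCE over RAD54L, whose lowest FANCE value (14.1 FPKM) exceeded the highest RAD54L value (13.98 FPKM), and FANCA over XRCC3, at 5.38 and 5.32 FPKM on the same measure.

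RAD50, the coiled-coil ATPase of the end-sensing complex, stood apart by near-absent counts. It had 0, 5 and 0 counts in the serum-starved libraries and 1, 10 and 10 counts in the FBS libraries, and it fell below the filter for testing. In GENCODE 29, whose gene positions match the files, 79.7% of the exonic bases of RAD50 (chromosome 5, 132556019 to 132646344) also lie in AC116366.3, a gene on the same strand that had 0 counts in all 6 libraries. How the counting treated reads that fall in 2 genes is not given in the sources used here, and its part in the RAD50 counts was not tested. The other 32 genes shared at most 8.87% of their exonic bases with a gene on the same strand. With genes on the opposite strand XRCC3 shared 76.7% (KLC1), RAD54L 25.1% (LRRC41), FANCA 23.6% (ZNF276), FANCL 19.7% (VRK2 and AC007250.1), ATR 16.4% (AC109992.1) and FANCF 11.3% (GAS2), and every other gene 6.70% or less. Whether counting used strand is not given, so the level of any gene with such overlap may include reads of its partner.

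**Figure D1:**
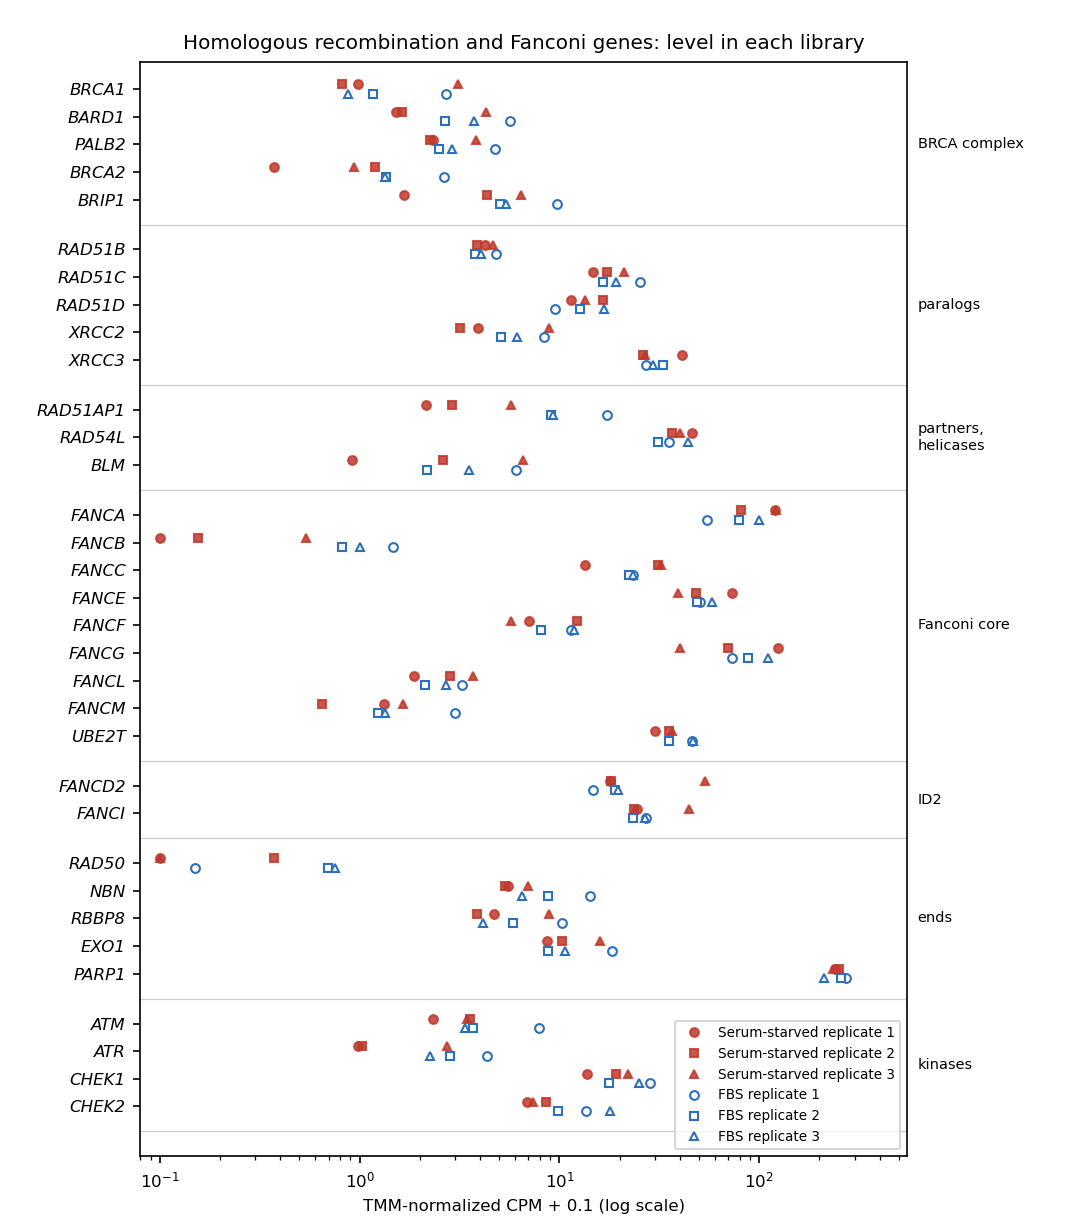
Level of each of the 33 genes in each library, as TMM-normalized CPM plus 0.1 on a log scale, grouped by role; filled red symbols are serum-starved libraries, open blue symbols FBS libraries, and the symbol shape gives the replicate. RAD51AP1, FANCB, CHEK2 and BRCA2 are the 4 tested genes whose groups do not overlap, and PARP1 is the highest. FANCB passed the filter for testing through its FBS libraries alone.

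The comparison asked whether these genes differ after 48 h without serum. None of the 32 tested genes passed the quasi-likelihood test of edgeR after Benjamini-Hochberg adjustment over all 13772 genes, of which 0.283% passed. The smallest adjusted p belonged to RAD51AP1 (0.176) and the next to CHEK2 (0.421). Before adjustment 3 genes had p under 0.05 (RAD51AP1, CHEK2 and FANCB), 9.38% of the 32, against 10.4% of all genes tested. DESeq2 called RAD51AP1, 1 of the 32 genes to which it gave an adjusted p, and 1.11% of all genes. In simulated data of this design without a GC trend the test found 13 of the 100 simulated 2-fold changes and 71 of the 100 simulated 4-fold changes, so a gene that did not pass may still have changed. Changes were simulated only in genes above a minimum mean count, so these shares do not cover genes of the lowest counts, such as FANCB. Of the 32, 21 had a log2 fold change below 0 (65.6%, against 51.5% of all genes tested), and their median was -0.22, against -0.02 over all genes. With a correction for GC content and length, described below, 16 were below 0 and the median was -0.01. Leaving out serum-starved replicate 3 gave an uncorrected median of -0.53, and leaving out FBS replicate 1 gave -0.088. FANCB passed the filter through its FBS libraries alone and RAD50 did not pass, so these counts do not stand for all 33. In bulk RNA, fewer cells in the phase that transcribes a gene and less RNA per cell cannot be told apart.

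The groups did not overlap in 4 of the 32 genes, all lower without serum (RAD51AP1, FANCB, CHEK2 and BRCA2). They were 12.5% of the 32, against 7.65% of all genes tested that were lower without overlap. FANCB entered the test through its FBS libraries alone, and without it 3 of 31 genes (9.68%) were lower without overlap. None of the 32 was higher without overlap, against 10.04% of all genes. The 95% interval of the log2 fold change lay within -1 and 1 for 12 of the 32 (37.5%, against 30.7% of all genes), so that a 2-fold change in either direction lay outside it. These 12 were RAD51B, RAD51C, RAD51D, XRCC3, RAD54L, FANCC, FANCE, FANCG, UBE2T, FANCI, EXO1 and PARP1. For 27 of the 32 a 4-fold change in either direction lay outside it. The intervals are for single genes, are not adjusted for the number of genes, and hold for the spread of these libraries.

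**Figure D2:**
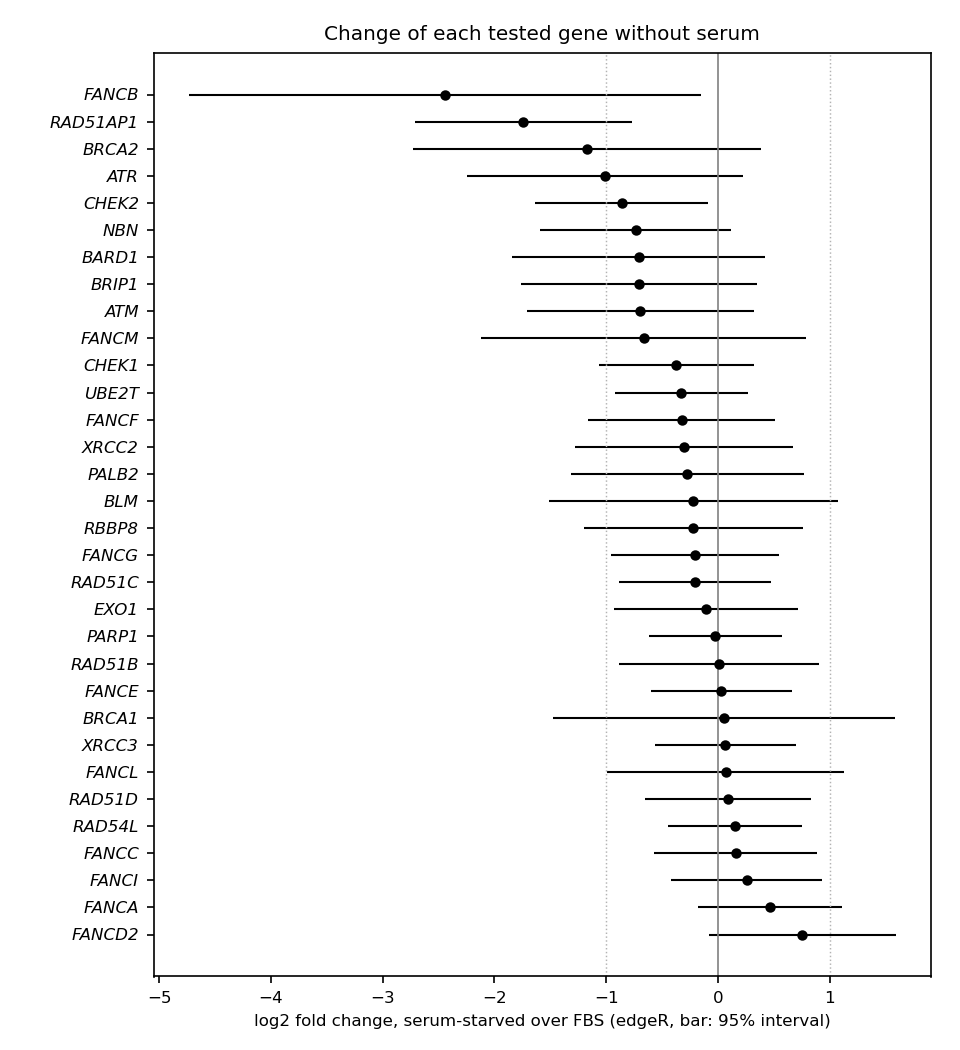
Log2 fold change of each of the 32 tested genes, serum-starved over FBS, with its 95% interval from edgeR's quasi-likelihood fit; dotted lines mark 2-fold changes. The intervals of FANCB, RAD51AP1 and CHEK2 exclude 0 before adjustment, and none passed the adjusted test. FANCB entered the test through its FBS libraries alone, so its interval is no support for a lower level.

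Among RAD51AP1, RAD54L and BLM, whose products act on pairing strands and joint molecules, RAD51AP1 had the lowest fitted value. RAD51AP1 (ENSG00000111247, chromosome 12, 4538798 to 4560048, GRCh38) encodes a DNA-binding protein that stimulates strand pairing. It had 2.04, 2.80 and 5.64 CPM without serum and 17.1, 8.996 and 9.23 CPM with FBS, here and below listed by replicate number. Every serum-starved library lay below every FBS library, and the highest of each group were serum-starved replicate 3 and FBS replicate 1. The means were 3.49 ± 1.90 CPM without serum and 11.8 ± 4.63 CPM with FBS (SD, n = 3 each), a fitted log2 fold change of -1.74 (standard error, SE, 0.46), a 95% interval of -2.71 to -0.77 and an edgeR adjusted p of 0.176. Without serum-starved replicate 3 the log2 fold change was -2.28 and it passed (edgeR adjusted p = 0.00773, with 1.81% of all genes called), and it also passed in DESeq2 (adjusted p = 0.0259, with 1.11% called) and without a low-count filter (edgeR adjusted p = 0.0266, with 0.541% called). Without FBS replicate 1 RAD51AP1 stood at -1.38 with an edgeR adjusted p of 0.997, in a fit that called 0.0282% of all genes.

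RAD54L, a DNA motor protein that aids strand exchange, overlapped between the groups, at 45.9, 36.3 and 40.2 CPM without serum and 35.2, 31.2 and 43.7 CPM with FBS (log2 fold change 0.15, edgeR adjusted p = 0.9). BLM, the helicase that dissolves joint molecules and is mutated in Bloom syndrome, had 0.816, 2.53 and 6.47 CPM without serum and 5.995, 2.09 and 3.45 CPM with FBS. Its lowest and highest values of all were serum-starved replicates 1 and 3, and its log2 fold change of -0.22 became -1.19 without serum-starved replicate 3 and 0.25 without FBS replicate 1.

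The paralogs RAD51B, RAD51C, RAD51D, XRCC2 and XRCC3, which aid strand exchange, included no gene past the test and none without overlap. Their log2 fold changes lay between -0.30 (XRCC2) and 0.09 (RAD51D), with adjusted p-values of 0.874 to 0.997. RAD51B was the steadiest in level, at 4.15, 3.79 and 4.54 CPM without serum and 4.73, 3.69 and 3.97 CPM with FBS. RAD51C, which takes part in both paralog complexes, had 14.7, 17.1 and 20.96 CPM without serum and 25.3, 16.4 and 19.1 CPM with FBS. XRCC2 had 3.81, 3.07 and 8.72 CPM without serum and 8.23, 5.00 and 6.04 CPM with FBS. In XRCC2 the highest value of all was serum-starved replicate 3, while the other two serum-starved libraries lay below every FBS library.

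Of the BRCA1-PALB2-BRCA2 group none passed, and 4 of the 5 had a log2 fold change below 0. BRCA2, a mediator of strand exchange (ENSG00000139618, chromosome 13, 32315474 to 32400266), had 4, 20 and 19 counts without serum and 50, 21 and 19 counts with FBS. On the CPM scale these were 0.272, 1.10 and 0.837 without serum and 2.54, 1.25 and 1.23 with FBS, without overlap but with neighbours of 1.10 and 1.23 CPM. The fitted change was -1.17 on the log2 scale (interval -2.73 to 0.39, edgeR adjusted p = 0.611). At 19 to 21 counts in 4 of the 6 libraries, the difference between those 4 was not detectable at this depth. With the GC and length correction the groups overlapped, at 0.465, 1.37 and 0.595 CPM without serum and 1.53, 1.31 and 1.29 CPM with FBS. BRCA1, the ubiquitin ligase and resection factor, had 0.884, 0.714 and 2.99 CPM without serum and 2.59, 1.07 and 0.78 CPM with FBS, a log2 fold change of 0.05 with an interval of -1.48 to 1.58. Serum-starved replicate 3 and FBS replicate 1 were the high libraries of BRCA1, and the fitted value became -0.90 without serum-starved replicate 3 and 0.72 without FBS replicate 1.

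BARD1, the partner that forms the BRCA1 ligase, had 1.43, 1.54 and 4.18 CPM without serum and 5.59, 2.56 and 3.64 CPM with FBS (log2 fold change -0.71, edgeR adjusted p = 0.703). With a library left out, BARD1 ranged from -1.41 without serum-starved replicate 3 to -0.37 without FBS replicate 1. BRIP1, a helicase that binds the BRCT domains of BRCA1, had 1.56, 4.23 and 6.34 CPM without serum and 9.60, 4.94 and 5.33 CPM with FBS. PALB2, the bridge between BRCA1 and BRCA2, had 2.24, 2.14 and 3.74 CPM without serum and 4.67, 2.38 and 2.79 CPM with FBS. In all 3 genes serum-starved replicate 3 lay inside the FBS range, and FBS replicate 1 was the highest. Per length, BRCA1 stood at 0.409, 0.307 and 0.473 of the BARD1 FPKM value without serum and at 0.306, 0.276 and 0.142 of it with FBS, and the nearest values of the groups were 0.307 and 0.306.

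In the Fanconi core complex, 5 of the 9 genes had a log2 fold change below 0, 4 above, and none passed. FANCB, an X-linked subunit of the catalytic module (ENSG00000181544, chromosome X, 14835961 to 14873069), had 0, 1 and 10 counts without serum and 27, 12 and 14 counts with FBS. On the CPM scale these were 0, 0.0549 and 0.44 without serum and 1.37, 0.715 and 0.91 with FBS. The fitted log2 fold change was -2.44 (interval -4.73 to -0.15, edgeR adjusted p = 0.447), and with a library left out it ranged from -4.76 without serum-starved replicate 3 to -1.92 without serum-starved replicate 1. The groups did not overlap, and 10 of its 11 serum-starved counts came from replicate 3, while replicates 1 and 2 lay at or under the limit that a count of 0 allows. Because FANCB entered the test through its FBS libraries alone, neither its interval nor the lack of overlap is support for a lower level. FANCL, the ubiquitin ligase subunit, had 1.77, 2.74 and 3.61 CPM without serum and 3.15, 2.03 and 2.5998 CPM with FBS. UBE2T, its E2 enzyme, had 30.1, 35.1 and 36.4 CPM without serum and 45.8, 35.3 and 46.5 CPM with FBS, and the groups overlapped between 35.3 and 36.4 CPM (log2 fold change -0.33, interval -0.92 to 0.26).

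The abundant core subunits went other ways by library. FANCA (ENSG00000187741, chromosome 16, 89737549 to 89816657) had 119.96, 81.1 and 121 CPM without serum and 54.4, 79.2 and 99.6 CPM with FBS, a log2 fold change of 0.47 (interval -0.18 to 1.11, edgeR adjusted p = 0.631). FANCG had 124, 69.9 and 40.2 CPM without serum and 72.9, 87.8 and 109.97 CPM with FBS. FANCE had 73.1, 48.4 and 39.0 CPM without serum and 50.6, 48.8 and 57.6 CPM with FBS. In FANCG and FANCE serum-starved replicate 1 was the highest of the 6 libraries and serum-starved replicate 3 the lowest, the reverse of the order in BLM. FANCC, FANCF and FANCM, the last a translocase that anchors the complex to DNA, had log2 fold changes of 0.16, -0.33 and -0.67 with adjusted p-values of 0.916, 0.831 and 0.791. The FANCM value was -0.10 without FBS replicate 1 and -0.028 with the GC and length correction.

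FANCD2 and FANCI, the pair that receives ubiquitin, were both above 0 without passing. FANCD2 (ENSG00000144554, chromosome 3, 10026414 to 10101930) had 17.8, 17.9 and 53.3 CPM without serum and 14.6, 18.8 and 19.5 CPM with FBS, a log2 fold change of 0.75 (SE 0.40, edgeR adjusted p = 0.533). The value rested on serum-starved replicate 3: the other two serum-starved libraries lay inside the FBS range, and without replicate 3 the log2 fold change was 0.02. FANCI had 24.4, 23.4 and 44.4 CPM without serum and 27.1, 23.4 and 26.7 CPM with FBS. On this scale it was high in serum-starved replicate 3 alone, and its log2 fold change of 0.26 was -0.11 without that library. With the GC and length correction FANCD2 had 25.8, 19.2 and 38.3 CPM without serum and 11.7, 20.3 and 20.1 CPM with FBS. FANCI then had 36.5, 25.3 and 32.5 CPM without serum and 20.9, 25.0 and 27.2 CPM with FBS. In both genes serum-starved replicates 1 and 3 then lay above every FBS library. The ratio of FANCD2 to FANCI in FPKM was 0.676, 0.712 and 1.11 without serum and 0.501, 0.745 and 0.677 with FBS.

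Of the genes that sense and resect ends, the 4 tested had log2 fold changes below 0 and none passed. NBN, the partner of RAD50 that recruits ATM, had 5.44, 5.27 and 6.87 CPM without serum and 14.1, 8.70 and 6.43 CPM with FBS (log2 fold change -0.73, interval -1.59 to 0.12, edgeR adjusted p = 0.549). The NBN value was -0.036 with the GC and length correction and -0.37 without FBS replicate 1. RBBP8, which encodes the resection factor CtIP, had 4.62, 3.79 and 8.76 CPM without serum and 10.2, 5.78 and 4.03 CPM with FBS. EXO1, the long-range exonuclease, had 8.56, 10.2 and 15.9 CPM without serum and 18.2, 8.64 and 10.5 CPM with FBS. PARP1 was level, at 240, 251 and 235 CPM without serum and 272, 255 and 212 CPM with FBS, and its interval of -0.62 to 0.57 was the narrowest of this group.

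All 4 checkpoint kinases had a log2 fold change below 0, and none passed. CHEK2, the kinase that ATM activates (ENSG00000183765, chromosome 22, 28687743 to 28742422), had 6.797, 8.45 and 7.31 CPM without serum and 13.4, 9.77 and 17.9 CPM with FBS. The groups did not overlap, at means of 7.52 ± 0.848 CPM without serum and 13.7 ± 4.06 CPM with FBS (SD, n = 3 each), a log2 fold change of -0.86 (interval -1.64 to -0.09, edgeR adjusted p = 0.421). ATR, the kinase of stalled forks (ENSG00000175054, chromosome 3, 142449235 to 142578826), had 0.884, 0.933 and 2.64 CPM without serum and 4.22, 2.74 and 2.14 CPM with FBS. Its log2 fold change of -1.01 had an interval of -2.25 to 0.22, and serum-starved replicate 3 was the library inside the FBS range. The ATR value was -1.74 without that library and -0.71 without FBS replicate 1. ATM had 2.24, 3.46 and 3.35 CPM without serum and 7.82, 3.57 and 3.25 CPM with FBS, so that FBS replicate 1 alone stood above the rest, and the log2 fold change of -0.69 became -0.18 without it. CHEK1, the kinase that ATR activates, had 13.6, 19.1 and 21.9 CPM without serum and 28.2, 17.7 and 24.8 CPM with FBS (log2 fold change -0.37, edgeR adjusted p = 0.749). The ratio of CHEK1 to ATR in FPKM was 29.3, 39.0 and 15.8 without serum and 12.7, 12.3 and 22.1 with FBS.

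**Figure D3:**
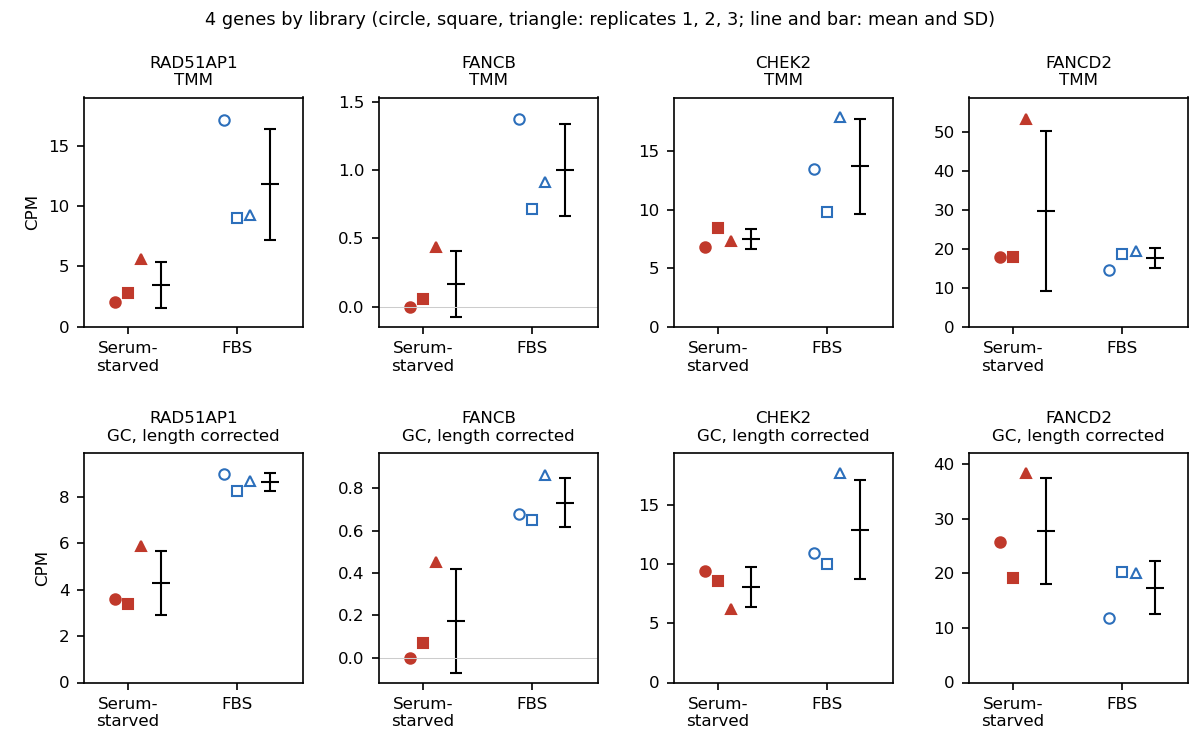
CPM of RAD51AP1, FANCB, CHEK2 and FANCD2 by library, serum-starved left and FBS right, with mean and SD beside the 3 points; the upper row holds TMM-normalized values and the lower row values corrected in each library for GC content and length. RAD51AP1, FANCB and CHEK2 do not overlap in either row, and the FANCD2 mean without serum rests on replicate 3 in the upper row. FANCB passed the filter through its FBS libraries alone.

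The genes leaned to low GC content, a trait that the choice of members did not use. Their median transcript GC content was 43.5%, against 50.7% over all genes tested, and 25 of the 32 lay below that median. The libraries differed in the level of such genes. FBS replicate 1 was the highest library for 16 of the 32 (50%, against 23.0% of all genes tested), and serum-starved replicate 1 was the lowest for 15 (46.9%, against 28.2%). Serum-starved replicate 3 was the highest for 8 (25%, against 23.8%). For the 25 genes of lower GC content, the median deviation from the gene's own mean was -0.44, -0.23 and 0.32 on the log2 scale in serum-starved replicates 1, 2 and 3 and 0.64, -0.13 and 0.03 in FBS replicates 1, 2 and 3. Over all tested genes below the median GC content it was -0.39, -0.06 and 0.25 in the serum-starved replicates. In the FBS replicates it was 0.30, -0.03 and 0.005, so the pattern was shared with low-GC genes in general. For the 7 members of higher GC content (FANCA, FANCE, FANCG, PARP1, RAD51D, RAD54L and XRCC3), the median deviation was 0.42, -0.10 and -0.05 in the serum-starved replicates and -0.12, -0.05 and 0.16 in the FBS replicates. Over all tested genes of higher GC content it was 0.30, 0.11 and -0.24 in the serum-starved replicates and -0.19, 0.07 and 0.04 in the FBS replicates.

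**Figure D4:**
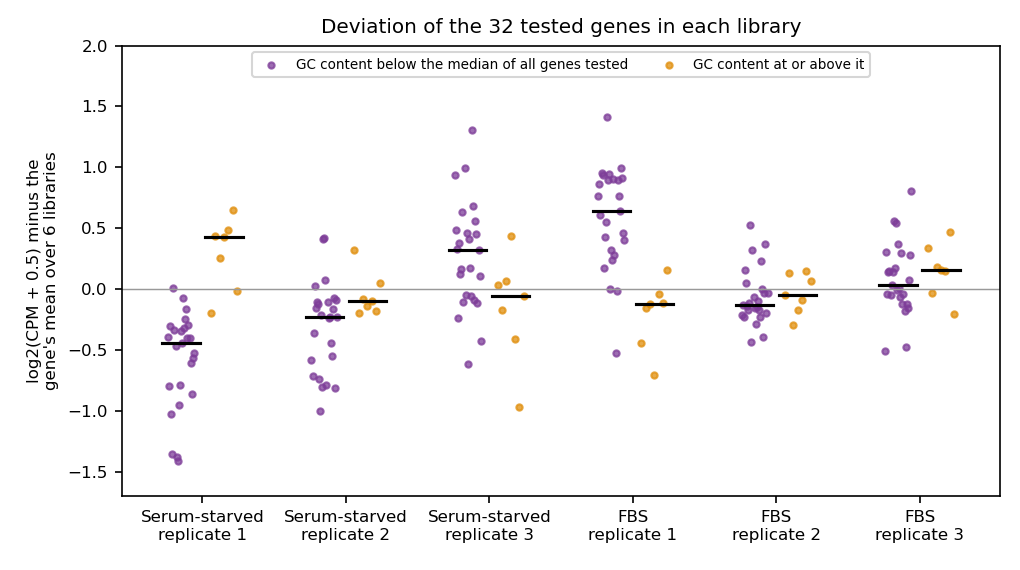
Deviation of the 32 tested genes from their own mean over the 6 libraries, as log2(CPM + 0.5), by library, split at the median GC content of all genes tested; black lines are medians. By their median, genes of lower GC content sit low in serum-starved replicate 1 and high in FBS replicate 1 and serum-starved replicate 3. The median of the 7 of higher GC content is high in serum-starved replicate 1, where RAD51D (-0.20) and PARP1 (-0.02) lie below 0.

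Across the 32 genes, which share libraries and are not independent, the log2 fold change followed GC content with a Spearman rho of 0.69, against 0.29 across all genes tested, and followed gene length at 0.15. The 25 genes of lower GC content had a median log2 fold change of -0.33 with 19 below 0, and the 7 of higher GC content had a median of 0.07 with 2 below 0. Over all genes tested, the medians were -0.15 for those of lower and 0.11 for those of higher GC content. With each library corrected for GC content and length, the median of the 32 was -0.01, 16 were below 0, and rho with GC content was 0.25. The correction removes trends with GC content or length over all genes, whatever their source, so such a shift is partly built in. The source of the trend was not tested. None of the 32 passed with this correction, where 0.835% of all genes did. RAD51AP1 then stood at 3.58, 3.38 and 5.88 CPM without serum and 8.98, 8.23 and 8.69 CPM with FBS, without overlap, with a log2 fold change of -0.99 and an edgeR adjusted p of 0.142. FANCB had a corrected log2 fold change of -1.78, CHEK2 of -0.68 and FANCD2 of 0.69 (edgeR adjusted p = 0.416, 0.282 and 0.254).

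**Figure D5:**
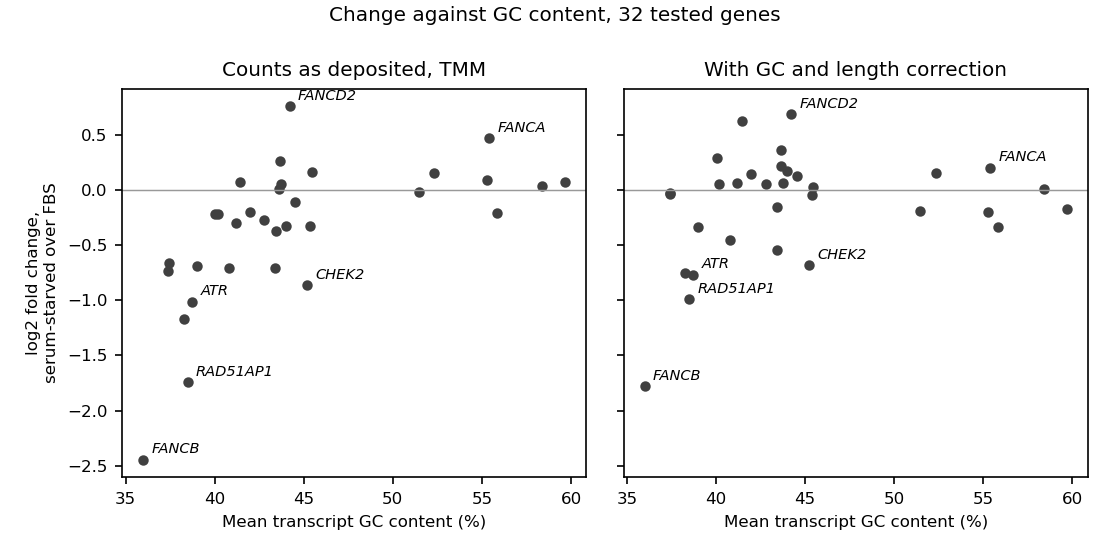
Log2 fold change of the 32 tested genes, serum-starved over FBS, against mean transcript GC content in percent, from the deposited counts with TMM scaling (left) and with the GC and length correction (right). Lower values tend to go with lower GC content on the left (Spearman rho 0.69). On the right rho is 0.25 and the median is -0.01. FANCB, RAD51AP1, BRCA2 and ATR, all of low GC content, are the lowest in both panels.

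The other genes of the pathways gave no call either. Of 71 partner genes in 3 lists (recombination, crosslink repair, and checkpoint and break signalling), 68 were tested, none passed in either direction, 38 were below 0, and the median was -0.19. By list the medians were -0.12 over 28 recombination genes, -0.40 over 14 crosslink repair genes and -0.20 over 26 signalling genes. The partners of lowest value with a mean of at least 1 CPM were ETAA1, an activator of ATR, at a log2 fold change of -1.82, USP1, which removes ubiquitin from FANCD2, at -1.14, FIGNL1 at -1.07 and CENPX at -1.01. CENPX, a histone-fold partner of FANCM, had 74.9, 53.7 and 23.2 CPM without serum and 101, 111 and 92.6 CPM with FBS, without overlap (edgeR adjusted p = 0.331). USP1 had 7.82, 10.4 and 16.9 CPM without serum and 48.3, 14.5 and 14.9 CPM with FBS, so its value rested largely on FBS replicate 1. The highest were FAN1, a nuclease of crosslink repair, at 0.78, RMI2, a partner of BLM, at 0.67, MDC1, the scaffold at breaks, at 0.64, and MCM9, a helicase that aids recombination, at 0.62. RMI2 had 33.5, 34.6 and 27.2 CPM without serum and 18.8, 16.8 and 24.3 CPM with FBS, without overlap (edgeR adjusted p = 0.456).

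Other repair pathways gave no called gene, with medians of -0.20 over 9 tested end-joining genes and -0.04 over 6 mismatch repair genes. Before adjustment 3 of the 9 end-joining genes had an edgeR p under 0.05 (PRKDC, XRCC4 and LIG4, described at the end). No mismatch repair gene did, and the share over all genes tested was 10.4%. Of 18 proliferation markers none passed, 12 were below 0 and the median was -0.06. MKI67 had 54.4, 43.7 and 111 CPM without serum and 38.4, 43.1 and 40.6 CPM with FBS, high in the same serum-starved library as FANCD2 and without overlap. Before adjustment 4 of the 18 had an edgeR p under 0.05, against 10.4% of all genes tested. These were MKI67 and 3 lower markers without overlap that were named after their values were seen. MCM3, named likewise, was higher without overlap, at 198, 192 and 182 CPM without serum and 148, 147 and 164 CPM with FBS (log2 fold change 0.32). CDK1, the mitotic kinase, had 7.48, 9.50 and 11.3 CPM without serum and 43.4, 26.6 and 16.8 CPM with FBS (log2 fold change -1.62, edgeR adjusted p = 0.0896). TOP2A and CCNE1 had log2 fold changes of -0.82 and -0.67 (edgeR adjusted p = 0.397 and 0.431). PCNA had 120, 193 and 241 CPM without serum and 247, 179 and 219 CPM with FBS.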

How the data were processed

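The 6 Ovcar8 libraries were grouped by treatment as the labels give it. Per the submitters' processing notes, the build was GRCh38 and the tools included STAR 2.6.1 and DESeq2, while the counter and its strand setting are not stated there. The authors deposited raw counts and FPKM values per gene and library, and per the file headers each row holds gene position and length. All 58735 gene positions matched GENCODE 29. For genes above 20 counts, the FPKM equalled the count divided by length and a constant per library.

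The filterByExpr function of edgeR (minimum count 10, total 15) kept 13772 genes, which were scaled by TMM and compared with edgeR 4.0.16 (robust quasi-likelihood, Benjamini-Hochberg over all genes, threshold 0.05) in R 4.3.3. SE is the log2 fold change divided by the root of F, and 95% intervals use the t quantile. The test was run on simulated data (13412 genes, no GC trend): 13 of the 100 simulated 2-fold changes and 71 of the 100 simulated 4-fold changes were found, and 0 of 84 calls were false. Changes were simulated only in genes above a minimum mean count. Transcript GC content is the mean over a gene's GENCODE 29 transcripts, and its correction with gene length used splines with 5 degrees of freedom as offsets. Limits on low counts cover counting error only. The members, lists and alternatives were chosen with earlier results of these data known. Named were all members, the 4 partners of largest change in each direction with a mean of at least 1 CPM, any called list gene, MKI67 and PCNA, and other names were chosen after values were seen. A listed gene is not reported here. Alternatives were RLE or total-count scaling, no filter or a stricter one (1 CPM and 10 counts in 3 libraries), limma-voom (limma 3.58.1), DESeq2 1.42.0, no robust estimation, a replicate block, each library left out, limma on log2(FPKM + 1), filtered at a mean of 0.5 FPKM or unfiltered, or on log2(FPKM + 0.1), filtered likewise, protein-coding genes only, and the GC and length correction with and without the block.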

Additional observations from a re-analysis of the deposited data

How the results depend on the processing

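The number of called genes among the 33 was 1, RAD51AP1, with DESeq2, with no low-count filter and without serum-starved replicate 3, and 0 in the others of 20 alternatives. It ranged from 0 to 1 over the 6 fits that left out a library. The median log2 fold change of the tested members was -0.53 without serum-starved replicate 3 and -0.088 without FBS replicate 1, the ends of that range. The genes called over all genes numbered 25 with total counts, 127 with no filter, 154 with DESeq2, 22 on log2(FPKM + 1), 19 on log2(FPKM + 0.1), 0 on log2(FPKM + 1) with no filter, 115 with the GC and length correction and 145 with the replicate block and that correction, against 39, and 4 (without FBS replicate 1) to 257 (without serum-starved replicate 3) with a library left out. The replicate block alone gave 43 calls and no member. Same-numbered libraries deviated together at correlations of -0.26, 0.10 and -0.08, so the numbers were not taken to pair them. Of 627 values of single members, 54 changed sign, and 15 of the 32 members never did. With the GC and length correction these were PALB2 (0.055), RAD51C (0.15), RAD51D (-0.20), XRCC2 (0.059), XRCC3 (-0.18), BLM (0.048), UBE2T (0.17), RBBP8 (0.28), EXO1 (0.12), and with the replicate block added PALB2 (0.061), RAD51C (0.14), RAD51D (-0.21), XRCC2 (0.0051), XRCC3 (-0.19), FANCC (-0.019), UBE2T (0.19), RBBP8 (0.28), EXO1 (0.15). With the replicate block alone they were BRCA1 (-0.099), FANCE (-0.015), in limma-voom BRCA1 (-0.010), FANCE (-0.020), with total counts FANCE (-0.012), with no filter RAD51B (-0.0028), and on the FPKM scale FANCE (-0.013) with a pseudocount of 1, with or without the filter, and FANCE (-0.015) with 0.1. With a library left out, sign changes occurred within these ranges: BRCA1 (-0.90 to 0.72), PALB2 (-0.59 to 0.064), RAD51B (-0.062 to 0.11), RAD51D (-0.099 to 0.32), XRCC3 (-0.16 to 0.17), BLM (-1.19 to 0.25), FANCC (-0.045 to 0.48), FANCE (-0.25 to 0.21), FANCG (-0.70 to 0.10), FANCL (-0.20 to 0.31), FANCI (-0.11 to 0.42), RBBP8 (-0.67 to 0.22), EXO1 (-0.41 to 0.27), PARP1 (-0.11 to 0.047). None of the changed signs belonged to a called value. The cause was not tested.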

Other observations

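NHEJ1, an end-joining factor named after its values were seen, had 0 counts in all 6 libraries. In GENCODE 29, 65.4% of its exonic bases also lie in AC068946.1, a gene on the same strand that had 0 counts in all 6 libraries. Among other listed genes that shared more than 50% of their exonic bases with a gene on the same strand, counts summed over the libraries were 1 for CD68, 26 for RAD50, 44 for RAD54B (shared with FSBP) and 121 for CENPS (shared with CENPS-CORT). How the counting treated reads in such shared exons was not tested, and these counts are not read here as levels of expression.

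PRKDC, the catalytic subunit of the end-joining kinase, also named after its values were seen, had 215, 224 and 553 CPM without serum and 196, 164 and 188 CPM with FBS, higher in each serum-starved library and by far in replicate 3 (log2 fold change 0.86, edgeR adjusted p = 0.412). XRCC4 and LIG4, named likewise, went the other way. XRCC4 had 0, 4 and 11 counts without serum and 66, 26 and 20 counts with FBS (log2 fold change -3.03, edgeR adjusted p = 0.256). It entered the test through its FBS libraries alone. LIG4, highest in FBS replicate 1, had a log2 fold change of -1.59 (edgeR adjusted p = 0.397).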
